A study of Mus musculus with 14 samples.

Results

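The receptors described here are 10 receptor tyrosine kinases with roles in mesenchymal cells and in tumors: Pdgfra, Pdgfrb, Ddr2, Met, Axl, Egfr, Erbb2, Insr, Kit and Epha2. They were taken by gene symbol, and all 10 had a row among the 55433 genes of the RNA table and a row among the 22470 gene bodies of the chromatin table. The cells were derived from a mouse tumor of the C57BL/6 strain and used at passages 6 to 8, and they carried a guide RNA that targets Nsd3 (sgNSD3) or a control guide (sgControl). The Nsd3 enzyme adds methyl groups to lysine 36 of histone H3. RNA was measured in 3 libraries labelled sgNSD3 and 3 labelled sgControl, with 20294828 to 21863833 counts each. The other 8 samples are of chromatin: H3K36me2, a mark of intergenic regions and many active genes, in 2 samples per condition, H3K27me3, the Polycomb mark, in 1 per condition, and 2 labelled IgG, one of which has a title and a source label that name different guides. The labels do not name the tumor or say whether the cells were a clone or a pool. They do not state that replicate libraries were grown as separate cultures. The spread behind every p-value is that of these 6 libraries and may be technical.

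As a check of the labels, Nsd3 RNA was higher in the libraries labelled sgNSD3, at 21989, 22012 and 21837 normalized counts in replicates 1, 2 and 3, against 14568, 14402 and 14674.5 in sgControl (chromosome 8, 25601601 to 25719667, mm10; limma adjusted p = 5.86e-14). RNA abundance does not show whether an edit disrupted the protein, so each direction below rests on the labels as given. Of the 11 mesenchymal and fibroblast markers, Vim averaged 51820 normalized counts in sgNSD3 and 51165 in sgControl and was not called. Of the 10 tested, limma called 3 higher and 0 lower, beside 5.44% and 6.44% of all tested genes. Those called were Fn1 (1.27-fold), Col1a1 (1.13-fold) and Thy1 (1.54-fold). Lum averaged 0.965 in sgNSD3 and 1.34 in sgControl. The other cell type lists were mixed as well. Of 10 epithelial genes, Epcam and Esrp1 had 0 reads in every library, while Krt19 averaged 2676 in sgNSD3 and 3911 in sgControl. Of 7 leukocyte genes, Ptprc averaged 0.326 in sgNSD3 and 0.686 in sgControl and Cd3e had 0 reads, while Csf1r averaged 178 in sgNSD3 and 155 in sgControl and Cd68 65.2 and 76.8. These were bulk samples, in which fewer cells of a type and less RNA per cell cannot be told apart. One control library stood apart from the others: the chi-square per degree of freedom was 9.95 between sgControl replicates 1 and 3 and 6.62 between replicates 1 and 2, against 2.90 between replicates 2 and 3. It was 1.33 to 1.45 within sgNSD3 and 7.39 to 8.32 between the conditions. Without sgControl replicate 1 the calls of Ddr2, Pdgfra and Met were kept (adjusted p = 2.21e-06, 0.00208 and 0.00486) and that of Pdgfrb was lost (0.0744), beside 11.8% of all tested genes called.

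Receptor tyrosine kinases span the cell membrane once. A ligand outside the cell brings receptors together, the kinase domains phosphorylate each other, and adaptors such as Grb2 and Shc1 pass the signal to the RAS, PI3 kinase and STAT pathways. Pdgfra, Pdgfrb, Ddr2 and Axl are typical of fibroblasts and other mesenchymal cells, while Met, Egfr, Erbb2 and Epha2 are widely known from epithelial tumors.

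Of the 10 receptors, Ddr2 and Pdgfrb rose and Pdgfra and Met fell in sgNSD3 libraries, by limma at an adjusted p under 0.05 over all 18263 genes tested. The 4 called receptors compare with 11.9% of all tested genes, and with 19.9% of the 6326 genes averaging at least 500 normalized counts, a group that holds every receptor here except Kit. By direction, 5.44% of all tested genes were called higher and 6.44% lower. The receptors were chosen with earlier results of these data known, so the number called is not read as support. The libraries of the conditions did not overlap for 5 receptors, the 4 above and Insr, beside 28.5% of all tested genes and 38.7% of those averaging at least 500 counts. The differences were small: the median absolute log2 fold was 0.11 over the receptors and 0.11 over all tested genes, and the summed counts of the 10 receptors were 42155 to 42339 in sgNSD3 and 42170 to 42787 in sgControl. All 10 passed the filter on low values. Normalized counts are not divided by transcript length, so the levels of different receptors are not ranked.

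**Figure D1:**
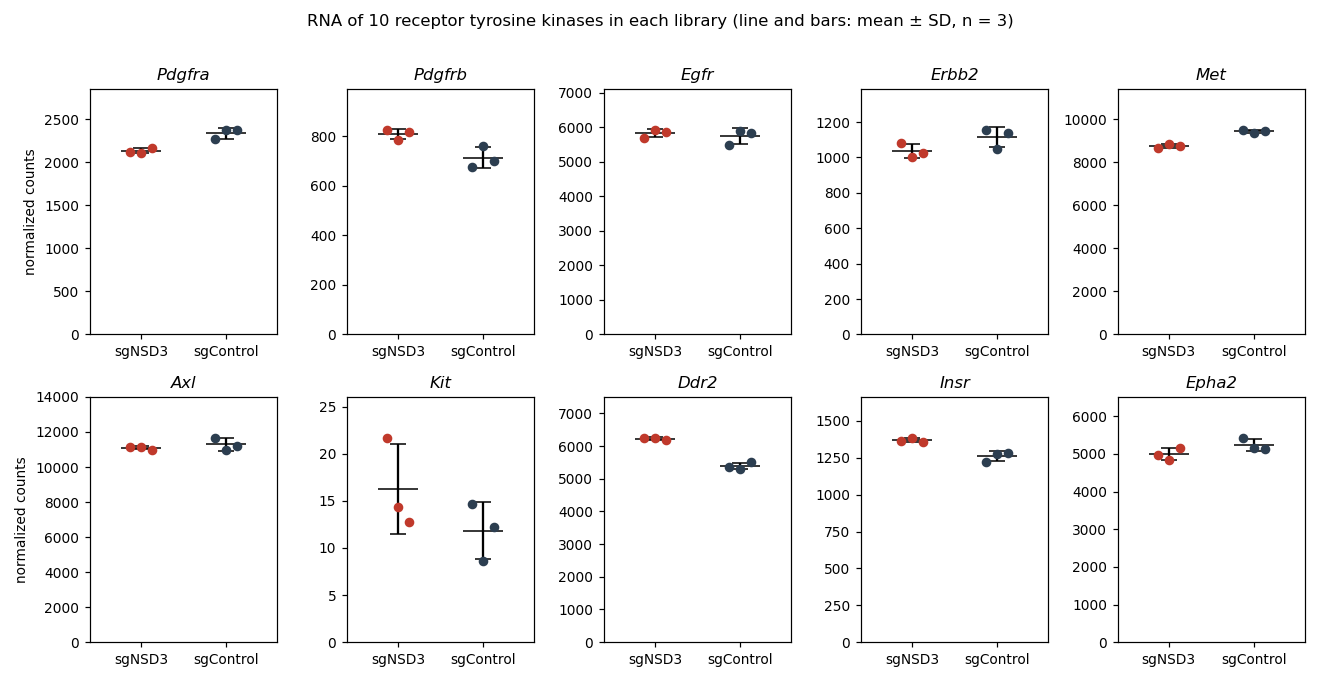
Normalized counts (y axis, from 0, a scale of its own for each gene) of the 10 receptors in the 3 libraries labelled sgNSD3 (red, left) and the 3 labelled sgControl (dark, right), replicates 1 to 3 from left to right, with the mean and SD as line and bars. The points of Ddr2, Pdgfrb and Insr lie wholly higher in sgNSD3 and those of Pdgfra and Met wholly lower, while those of Egfr, Erbb2, Axl, Kit and Epha2 overlap.

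The 250 bases before the start site that RefSeq gives (GRCm38.p6) are shown for the receptor with the clearest rise, for both that fell, and for Axl, which did not pass the test, to let their composition be compared. Capitals mark 4 motifs sought on both strands: the GC box GGGCGG, the AP-1 site TGAGTCA or TGACTCA, the cAMP response element TGACGTCA and the TATA box TATAAA. Ddr2 lies at chr1:170088945-170089194 (minus strand), Pdgfra at chr5:75152001-75152250 (plus strand), Met at chr6:17463707-17463956 (plus strand) and Axl at chr7:25788734-25788983 (minus strand).
Ddr2: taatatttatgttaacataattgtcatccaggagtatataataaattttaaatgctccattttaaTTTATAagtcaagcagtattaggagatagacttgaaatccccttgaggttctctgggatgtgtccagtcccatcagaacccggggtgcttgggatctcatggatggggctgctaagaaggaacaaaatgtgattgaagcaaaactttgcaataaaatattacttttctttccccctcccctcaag
Pdgfra: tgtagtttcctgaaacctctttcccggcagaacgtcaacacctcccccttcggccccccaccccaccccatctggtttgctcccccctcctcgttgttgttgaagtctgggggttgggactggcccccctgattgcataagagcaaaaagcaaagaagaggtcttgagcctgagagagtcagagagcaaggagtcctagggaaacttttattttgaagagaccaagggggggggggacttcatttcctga
Met: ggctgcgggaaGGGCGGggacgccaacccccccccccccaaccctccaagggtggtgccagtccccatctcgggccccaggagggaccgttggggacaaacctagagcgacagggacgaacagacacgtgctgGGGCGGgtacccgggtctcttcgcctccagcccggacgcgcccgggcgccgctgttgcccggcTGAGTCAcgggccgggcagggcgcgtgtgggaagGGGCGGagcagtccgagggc
Axl: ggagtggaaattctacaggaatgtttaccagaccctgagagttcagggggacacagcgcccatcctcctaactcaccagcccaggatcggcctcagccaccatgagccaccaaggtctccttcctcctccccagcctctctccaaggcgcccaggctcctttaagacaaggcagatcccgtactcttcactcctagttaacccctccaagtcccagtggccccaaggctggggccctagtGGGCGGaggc

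The Ddr2 stretch was the poorest in G and C of the 8 receptors with an entry, at 37.6% and with 1 CpG, the 7.92 percentile of G and C among the 32851 listed promoters. It held 1 TATA box match, on the other strand and 185 bases before the start. The Met stretch was 74% G and C with 24 CpGs, the 88.02 percentile of CpGs, and held 3 GC boxes and, 54 bases before the start, 1 AP-1 match. The Pdgfra stretch, at 54.4% with 4 CpGs, held none of the motifs, and that of Axl, at 60% with 5 CpGs, held 1 GC box. Of the stretches not shown, Egfr and Kit had a GC box each, Erbb2 none of the motifs, and Epha2 a GC box and a cAMP response element. Among all listed promoters 32.74% held the GC box, 4.46% the AP-1 site, 1.55% the cAMP response element and 12.37% the TATA box. A match is only a run of letters. The receptors that fell, Met and Pdgfra, did not share a motif, and the windows of Ddr2, Pdgfra and Met lie inside the RefSeq span of their gene and that of Axl lies mostly inside it, so start sites further upstream are left out.

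Ddr2 had the clearest difference. It encodes a receptor that binds fibrillar collagen instead of a soluble growth factor and is typical of connective tissue cells (chromosome 1, 169972307 to 170110836, mm10). Ddr2 had 6253, 6261 and 6186 normalized counts in sgNSD3 replicates 1, 2 and 3, against 5372, 5298 and 5502 in sgControl. The lowest sgNSD3 library thus stood above the highest sgControl library. The means were 6234 ± 41.4 in sgNSD3 and 5391 ± 103 in sgControl (SD, n = 3 each), which is 1.16-fold higher (log2 fold 0.21 ± 0.029, SE; limma adjusted p = 1.22e-05). The call held in all 16 settings run, with adjusted p from 8.22e-07 to 0.000535. Of its collagen ligands, Col1a1 rose 1.13-fold, to 429867 ± 1576 normalized counts in sgNSD3 against 380556 ± 31222 in sgControl (adjusted p = 0.00552), but this call was lost without sgNSD3 replicate 1 or 2 and under quantile normalization. Col1a2 was lower in every sgNSD3 library (280299 ± 2899 in sgNSD3, 300518 ± 16701 in sgControl); it was not called on the deposited values (limma adjusted p = 0.0831), but limma voom on the recovered counts called it lower (0.00283). Col3a1 was not called (log2 fold -0.03). The related collagen receptor Ddr1 was called higher at 1.08-fold, with overlapping libraries (adjusted p = 0.0268), and its call was lost when any library but sgControl replicate 1 was left out.

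The PDGF receptors went opposite ways. Pdgfra (chromosome 5, 75151322 to 75198206), the receptor of PDGF-A and PDGF-C among others, had 2125, 2111 and 2164 normalized counts in sgNSD3 replicates 1, 2 and 3, against 2267, 2373 and 2376 in sgControl. Every sgNSD3 library was below every sgControl library, with means of 2134 ± 27.5 in sgNSD3 and 2339 ± 62.3 in sgControl (1.1-fold lower, log2 fold -0.13 ± 0.036, SE; adjusted p = 0.0127). Pdgfrb (chromosome 18, 61045127 to 61085067), which answers PDGF-B and PDGF-D and is prominent in pericytes, had 826, 785 and 817 in sgNSD3, against 677, 761 and 702 in sgControl. Here every sgNSD3 library was above every sgControl library, although sgControl replicate 2 came close. The means were 809 ± 21.3 in sgNSD3 and 713 ± 43.0 in sgControl (1.13-fold higher, log2 fold 0.18 ± 0.053, SE; adjusted p = 0.0223). Leaving out 1 library kept the direction of both. On the deposited log2 scale, Pdgfra then ran from -0.121 to -0.0945, beside -0.104 with all libraries. Pdgfrb ran from 0.0872 to 0.136 on that scale, beside 0.109 with all libraries. The share of all tested genes called was 7.4%, 7.49% and 7.84% without sgNSD3 replicates 1, 2 and 3. It was 9.29% without sgControl replicate 2 and 11.7% without sgControl replicate 3. Both calls were lost without some of the libraries. That of Pdgfra was lost without sgNSD3 replicate 1 (adjusted p = 0.0647), sgNSD3 replicate 2 (0.0755) or sgControl replicate 2 (0.0517), and that of Pdgfrb without sgNSD3 replicate 1 (0.107) or 3 (0.0914) or sgControl replicate 1 (0.0744) or 3 (0.0565).

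Taking both receptors within a library removes library scaling. The Pdgfrb/Pdgfra ratio of normalized counts was 0.389, 0.372 and 0.378 in sgNSD3 replicates 1, 2 and 3, against 0.299, 0.321 and 0.296 in sgControl. It was 1.24-fold higher in sgNSD3, with no overlap between the conditions. The exact two-sided permutation test gave p = 0.1, the smallest p that 3 against 3 allows, and 0.2 after Benjamini-Hochberg adjustment over the 4 ratios compared.

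Among the PDGF ligands, Pdgfa, a ligand of Pdgfra, fell and Pdgfd, a ligand of Pdgfrb, rose. Pdgfa had 841, 820 and 851 normalized counts in sgNSD3, against 958, 979.9 and 929.7 in sgControl (1.14-fold lower, adjusted p = 0.00693), a call lost without sgNSD3 replicate 2 (adjusted p = 0.0531). Pdgfd had 52.7, 50.8 and 47.9 in sgNSD3, against 30.3, 24.9 and 27.4 in sgControl (1.83-fold higher, adjusted p = 0.00311), and its call held without any 1 library. Pdgfb and Pdgfc were not called, with 95% intervals of the fold, sgNSD3 over sgControl, of 0.899 to 1.08 and 0.922 to 1.08. Beside Pdgfrb, 2 of the 5 tested markers of pericytes and smooth muscle were called higher, against 5.44% of all tested genes. They were Mcam (459 in sgNSD3, 358 in sgControl) and Notch3 (67.6 and 43.0). Cspg4 (49.4 in sgNSD3, 40.9 in sgControl) and Des (17.6 and 19.5) were not called, and Rgs5 lay under the filter. The 8 listed markers summed to 35969 to 36968 in sgNSD3 and 35246 to 37394 in sgControl, nearly all of it Acta2 (35966 in sgNSD3 and 35789 in sgControl, not called). Of the same list, Kcnj8 had 0 reads in every library, and Abcc9 averaged 0.32 in sgNSD3 and 0.338 in sgControl. The part of such cells in the Pdgfrb value was not tested.

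Met fell and Axl did not pass the test. Met, the receptor of hepatocyte growth factor (chromosome 6, 17463349 to 17573980), had 8662, 8828 and 8751 normalized counts in sgNSD3 replicates 1, 2 and 3, against 9494, 9345 and 9432 in sgControl. The conditions were well apart relative to their spread, with means of 8747 ± 83.0 in sgNSD3 and 9424 ± 74.6 in sgControl (1.08-fold lower, log2 fold -0.11 ± 0.027, SE; adjusted p = 0.00899). The call was lost without sgNSD3 replicate 1 (adjusted p = 0.0756) or 3 (0.0517). Its ligand Hgf averaged 1.64 normalized counts in sgNSD3 and 1.32 in sgControl and lay under the filter. Mst1r, the closest relative of Met, was 1.17-fold lower (1052 ± 8.14 in sgNSD3, 1231 ± 60.2 in sgControl; adjusted p = 0.00102). Beside the fall of Met, 3 of the 5 tested epithelial markers were called lower, Krt19, Krt18 and Krt14, against 6.44% of all tested genes. Krt8 was not called (29.5 in sgNSD3, 32.6 in sgControl). Ovol1 went the other way without overlap (15.5 in sgNSD3, 9.33 in sgControl) and was not called. The 10 listed markers summed to 3080 to 3118 normalized counts in sgNSD3 and 4271 to 4833 in sgControl. Most of that was Krt19 (2676 in sgNSD3 and 3911 in sgControl). The part of epithelial cells in the Met value was not tested.

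Axl, a receptor of GAS6 that is often high in mesenchymal tumor cells (chromosome 7, 25756500 to 25788924), had 11147, 11147 and 10998 normalized counts in sgNSD3, against 11679, 10998 and 11197 in sgControl. The libraries overlapped, and the 95% interval of the fold was 0.945 to 1.02 (log2 fold -0.02 ± 0.028, SE; adjusted p = 0.657). The Axl/Met ratio was 1.29, 1.26 and 1.26 in sgNSD3 replicates 1, 2 and 3, against 1.23, 1.177 and 1.19 in sgControl (exact two-sided permutation p = 0.1, 0.2 adjusted over 4 ratios). Gas6, the ligand of Axl, had 289, 313 and 266 normalized counts in sgNSD3, against 251, 195 and 227 in sgControl (1.29-fold higher, adjusted p = 0.00854), but the call was lost without sgNSD3 replicate 2 or sgControl replicate 2, with an adjusted p of up to 0.0805. Pros1, or protein S, a ligand of the sister receptors Tyro3 and Mertk, had 471, 460.3 and 465 in sgNSD3, against 396, 391 and 368 in sgControl (1.21-fold higher, adjusted p = 0.00472), and this call held without any 1 library. Of the sister receptors, Tyro3 was 1.24-fold lower (adjusted p = 0.0284, lost without sgNSD3 replicate 1 or 2 or sgControl replicate 1), and Mertk was not called (log2 fold 0.04, adjusted p = 0.868).

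**Figure D2:**
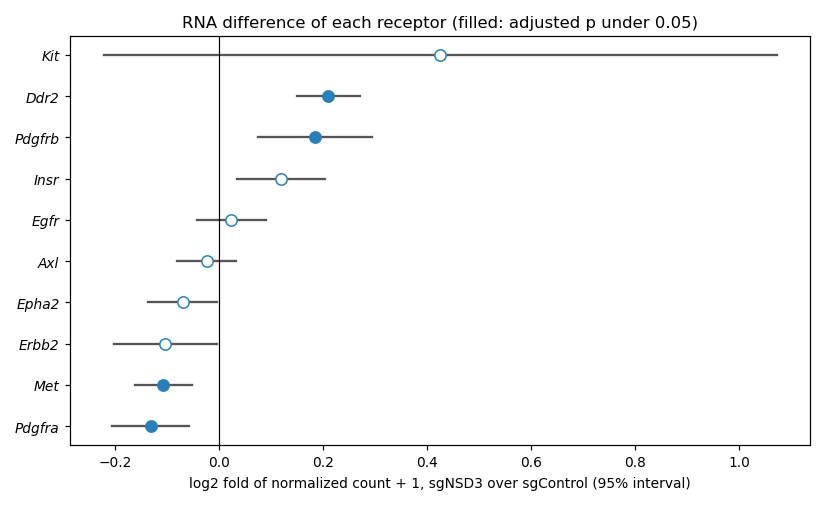
Log2 fold of each receptor (x axis, sgNSD3 over sgControl, from normalized count + 1) with its 95% interval, not adjusted for multiple tests; filled points had an adjusted p under 0.05. Ddr2 at 0.21 and Pdgfrb at 0.18 lie right of 0, Pdgfra at -0.13 and Met at -0.11 left of it, and Kit has an interval of -0.22 to 1.07.

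Neither Egfr nor Erbb2, both of the ErbB family, passed the test. Egfr, the receptor of EGF and related peptides (chromosome 11, 16752203 to 16913907), had 5698, 5918 and 5857 normalized counts in sgNSD3, against 5470.3, 5894 and 5843 in sgControl. The ranges overlapped and the 95% interval of the fold was 0.970 to 1.06 (adjusted p = 0.721). Erbb2, a partner receptor with no ligand of its own (chromosome 11, 98412484 to 98437716), had 1081, 1005 and 1024 in sgNSD3, against 1155, 1049 and 1139.7 in sgControl. The means were 1037 ± 39.5 in sgNSD3 and 1115 ± 57.5 in sgControl, with overlapping libraries (log2 fold -0.1 ± 0.048, SE; adjusted p = 0.17). The Erbb2/Egfr ratio overlapped between the conditions, at 0.170 to 0.190 in sgNSD3 and 0.178 to 0.211 in sgControl (exact two-sided permutation p = 0.2, also 0.2 when adjusted). The other family members were scarce, with Erbb3 at 39.6 in sgNSD3 and 47.6 in sgControl (not called) and Erbb4 under the filter.

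Some ligands of Egfr differed all the same. Btc, betacellulin, had 46.5, 41.2 and 42.0 normalized counts in sgNSD3 replicates 1, 2 and 3, against 11.5, 10.5 and 17.3 in sgControl, a 3.3-fold rise (log2 fold 1.68 ± 0.25, SE; adjusted p = 1.67e-05). Ereg, epiregulin, rose 1.17-fold, at 639.7, 604 and 611 in sgNSD3 against 500.3, 545 and 537 in sgControl (adjusted p = 0.00834), a call lost without sgNSD3 replicate 1 (0.0632). Hbegf, another ligand of Egfr, was not called, with a fold interval of 0.913 to 1.03. Tgfa and Egf were not called either, and Areg and Epgn lay under the filter. The neuregulins Nrg1, Nrg2 and Nrg4, ligands of other ErbB receptors, were not called. Of the listed negative regulators of receptor tyrosine kinases, Errfi1, which blocks the Egfr kinase, rose 1.17-fold (adjusted p = 0.0107, lost without sgNSD3 replicate 1 or sgControl replicate 3). Lrig3 was 1.2-fold lower (adjusted p = 0.00468). Lrig1 averaged 660 in sgNSD3 and 738 in sgControl without overlap and was not called (limma adjusted p = 0.0528), nor were Cbl and Cblb.

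Insr, the insulin receptor (chromosome 8, 3150922 to 3279649), had 1362, 1387 and 1358 normalized counts in sgNSD3, against 1223, 1277 and 1284 in sgControl. The conditions did not overlap, yet the receptor missed the threshold (log2 fold 0.12 ± 0.041, SE; adjusted p = 0.0582). It passed with genes under 32 counts left out (0.0496) and under quantile normalization (0.044), and not in the other 13 alternatives. Grb14, an adaptor that binds the active insulin receptor and inhibits it, rose 2.18-fold to 246 ± 9.97 normalized counts in sgNSD3, against 113 ± 6.63 in sgControl (log2 fold 1.12 ± 0.097, SE; adjusted p = 9.77e-09, and at most 5.98e-07 without any 1 library). Grb10, a related inhibitor, and the substrates Irs1 and Irs2 were not called. Of the ligands, Ins1 had 0 reads in every library and Ins2 lay under the filter. Igf2 had 24.8, 22.1 and 23.5 in sgNSD3, against 10.4, 7.66 and 2.03 in sgControl. It passed the filter only through the sgNSD3 libraries, so its call is not read as a result. Igf1 was called 1.07-fold lower (adjusted p = 0.0303), a call lost without any of 4 single libraries, sgNSD3 replicates 1 and 3 and sgControl replicates 2 and 3, and under 3 of the other settings.

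Kit was close to silent. The receptor of stem cell factor is known from mast cells, melanocytes and blood progenitors (chromosome 5, 75574987 to 75656722). It had 21, 15 and 13 reads in sgNSD3 replicates 1, 2 and 3, against 14, 9 and 12 in sgControl, or 21.7, 14.4 and 12.7 against 14.6, 8.61 and 12.2 normalized counts. The libraries overlapped and the fold interval of 0.857 to 2.1 was wide (adjusted p = 0.432). The Kit/Pdgfra ratio overlapped between the conditions (exact two-sided permutation p = 0.2, also 0.2 adjusted over the 4 ratios). Of the 6 mast cell markers, Cpa3 and Fcer1a had 0 reads in every library, Tpsab1 averaged 0 in sgNSD3 and 4.37 in sgControl, and Ms4a2, the only one past the filter, averaged 7.27 and 9.02 and was not called. The 6 summed to 6.71 to 9.30 in sgNSD3 and 12.5 to 16.2 in sgControl. Of the 6 melanocyte markers, Mitf (50.2 in sgNSD3, 53.2 in sgControl) and Pmel (47.5 and 55.4) passed the filter and were not called, and Tyr and Dct averaged under 1 count in both conditions. The part of such cells in the Kit value was not tested. In contrast, Kitl, the Kit ligand, had 1236, 1229 and 1239.6 normalized counts in sgNSD3, against 989, 985 and 1028 in sgControl. It rose 1.23-fold, with no overlap between the conditions (adjusted p = 1.56e-05, and at most 0.000374 without any 1 library).

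Pdgfra, Kit and Kdr, the main VEGF receptor, lie side by side on chromosome 5. Pdgfra ends 376.8 kb before Kit, and Kit ends 276.1 kb before Kdr. Kdr had 175, 208 and 188 normalized counts in sgNSD3, against 117.0, 124 and 103 in sgControl, a 1.66-fold rise (adjusted p = 4.68e-05). Thus in this cluster of 3 receptors one was called lower, one higher, and Kit was not called. Of the other protein-coding genes within 500 kb of Pdgfra or Kit, chosen after values were seen, Chic2 was called lower (1.13-fold, adjusted p = 0.029), Lnx1 and Srd5a3 were not called, and Gsx2 had 0 reads. Beside Kdr, the 7 endothelial markers summed to 197 to 238 in sgNSD3 and 121 to 146 in sgControl, mostly Kdr itself. Tek averaged 17.6 in sgNSD3 and 11.8 in sgControl and was not called, Pecam1 averaged 6.69 and 6.63, Cdh5 was under 1 in both conditions, and Emcn had 0 reads. The part of such cells in the Kdr value was not tested.

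Epha2, an ephrin-A receptor of epithelial and tumor cells (chromosome 4, 141301221 to 141329384), had 4978, 4842 and 5171 normalized counts in sgNSD3, against 5435, 5167 and 5144 in sgControl. The highest sgNSD3 library stood above the lower sgControl libraries, and the difference was not called (log2 fold -0.07 ± 0.033, SE; adjusted p = 0.169). Other Eph receptors of the A class moved more. Epha3 had 59.7 ± 2.82 normalized counts in sgNSD3 and 21.8 ± 2.34 in sgControl (2.75-fold, adjusted p = 8.65e-06), Epha1 rose 1.3-fold (adjusted p = 7.88e-07) and Epha7 1.21-fold (adjusted p = 0.0416, lost without any of 4 single libraries), while Epha4 was 1.249-fold lower (adjusted p = 3.46e-06). Of the 5 ephrin-A ligands, Efna1 to Efna5, none was called by limma; the lowest adjusted p was 0.0793, for Efna1, at 137 ± 11.8 in sgNSD3 and 170 ± 22.0 in sgControl.

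Of the 30 listed ligands 25 were tested, and 8 rose and 2 fell, which is 40% beside 11.9% of all tested genes; the median log2 fold was -0.01, against 0.00 for all tested genes. The gene lists were chosen with earlier results of these data known, so the share called in a list is not read as support. One of the 8 ligands that rose, Igf2, also passed the filter only through the sgNSD3 libraries. Of the other rises, Btc and Pdgfd had the largest log2 folds, both with few counts. Among 32 tested other receptor tyrosine kinases of 46 listed, 7 rose and 4 fell, or 34.4% beside 11.9% of all tested genes, with Epha3, Kdr and Flt1 (1.34-fold) the furthest from 0 among those called. The call of Flt1 was lost when any library but sgControl replicate 1 was left out. The 4 that fell were Epha4, Flt4 (1.22-fold), Mst1r and Tyro3. Without sgNSD3 replicate 2 or 3, 3 receptors of this list rose, beside 3.51% and 3.6% of all tested genes called higher. The number was also 3 without sgControl replicate 2 or 3 (4.15% and 5.44% of all). It was 4 without sgNSD3 replicate 1 (3.53%) and 8 without sgControl replicate 1 (5.41%).

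Of 26 adaptors and proximal signalling genes, 1 rose and 2 fell, 11.5% beside 11.9% of all tested genes. Rasa1, which switches RAS off, rose 1.17-fold to 1506 ± 17.6 in sgNSD3, against 1286 ± 12.5 in sgControl (adjusted p = 0.00022). Shc1, an adaptor that carries receptor signals to RAS, was 1.12-fold lower (4596 ± 45.6 in sgNSD3, 5162 ± 74.96 in sgControl; adjusted p = 0.000269), and the PI3 kinase subunit Pik3cb 1.09-fold lower (adjusted p = 0.0189, lost without any 1 sgNSD3 library). Of 29 tested negative regulators and shedding genes, 4 rose and 1 fell, 17.2%, beside 11.9% of all tested genes. Those that rose were Grb14, Errfi1, Sh2b3 (1.15-fold) and Spred1 (1.11-fold), and Lrig3 fell. The differences between these lists were not tested.

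**Figure D3:**
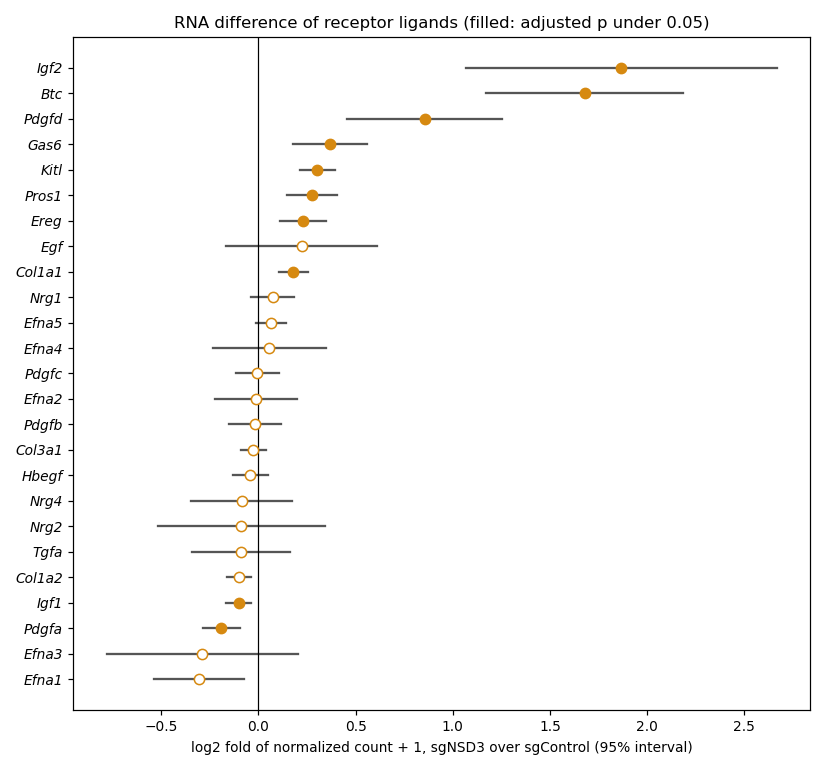
Log2 fold (x axis, sgNSD3 over sgControl, from normalized count + 1) of the 25 tested ligands with 95% intervals not adjusted for multiple tests; filled points had an adjusted p under 0.05. Igf2 (1.87, past the filter only through sgNSD3), Btc (1.68) and Pdgfd (0.85) stand furthest right, and of the filled points only Pdgfa (-0.19) and Igf1 (-0.1) lie left of 0.

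For chromatin, each gene body has 1 signed H3K27me3 score and 2 signed H3K36me2 scores in the authors' deposited table, in columns named sample 1 and sample 2. The header does not say which libraries or conditions stand behind a column. A score may thus be a level of the mark or a difference between conditions. The scores are used here only to place the receptors among genes, and no difference between sgNSD3 and sgControl is read from them. In the authors' deposited table all 10 receptors had H3K27me3 scores below 0, from -0.108 for Kit to -0.0278 for Egfr, and below the median of -0.0258 over 22470 gene bodies. Of all gene bodies 49.9% lay below that median, and 66.3% of the 5917 whose RNA averaged at least 500 normalized counts. Kit, with little RNA, thus had the lowest H3K27me3 score of the receptors in the authors' deposited table, at the 9.83 percentile.

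H3K36me2 scores spread the receptors widely. In the authors' deposited table the mean of both H3K36me2 columns lay above the median of all gene bodies (0.1) for 7 receptors, beside 50% of all gene bodies and 58.8% of those with at least 500 counts. Kit (0.116 in the sample 1 column and 0.31 in the sample 2 column) and Erbb2 (0.103 and 0.299) had the highest means in the authors' deposited table, at the 95.4 and 93.8 percentiles. In the sample 1 column alone of the authors' deposited table, Kit stood at the 74.6 percentile and Erbb2 at the 68.8, below Ddr2. Egfr was lowest in the authors' deposited table at -0.0244 and 0.0326, the 5.69 percentile, and Epha2 next at 0.0645 and 0.0433, the 20.3 percentile. Kit, with 9 to 21 reads per library, and Egfr, with 5470.3 to 5918 normalized counts, thus stood at opposite ends of the mean score among the receptors.

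The columns disagreed for several receptors. Ddr2 stood at the 96.8 percentile of the sample 1 column and the 52.3 percentile of the sample 2 column of the authors' deposited table, with scores of 0.205 and 0.131. Pdgfrb had nearly equal scores of 0.079 and 0.0793 in the authors' deposited table, which were the 56.7 and 28.95 percentiles; the medians of all gene bodies were 0.0757 and 0.125. Pdgfra had 0.116 and 0.115 there, Insr 0.0647 and 0.155, Met 0.106 and 0.194, and Axl 0.09 and 0.229. Of the called receptors, Ddr2 and Pdgfrb, which rose, stood at the 86.1 and 35.7 percentiles of mean H3K36me2 in the authors' deposited table, and Pdgfra and Met, which fell, at 60.3 and 79.0. The called receptors that rose and those that fell were thus interleaved in this score.

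**Figure D4:**
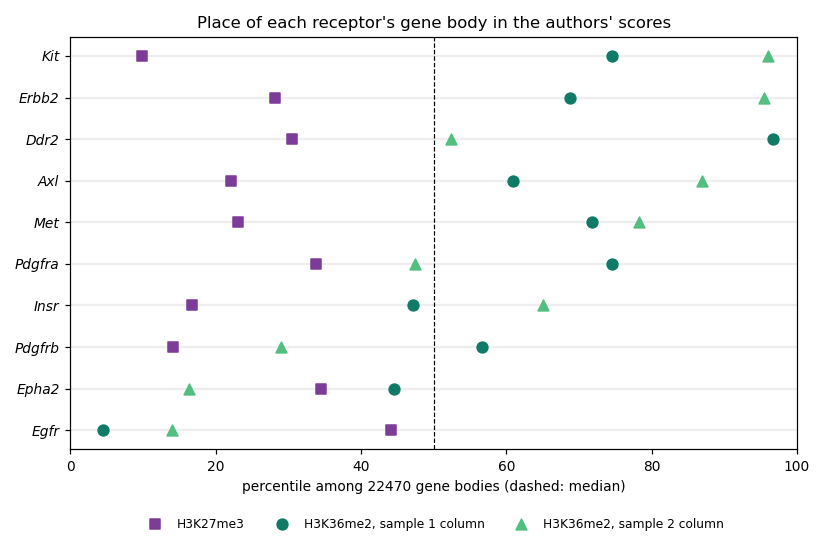
Percentile of each receptor's gene body (x axis, 0 to 100 among 22470 gene bodies, median dashed) in the 3 score columns of the authors' deposited table: H3K27me3 (squares), H3K36me2 sample 1 (circles) and sample 2 (triangles), with receptors ordered by their mean H3K36me2 score. All squares lie left of the median, and the H3K36me2 points run from the lowest percentiles for Egfr to the highest for Kit and Ddr2.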

How the data were processed

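RNA was measured in 6 libraries, 3 per condition. The members and gene lists were chosen with earlier results of these data known. The submitters' processing notes name HISAT2, featureCounts, DESeq2 and mm10. The deposited RNA values are log2 values with a floor of 8.4511 for 0 reads, on the variance-stabilised scale of DESeq2 as the authors ran it. Inverting it gave, in each library, whole multiples of 1 step (tolerance 0.05) for 100% of values above 0. The products with the step are called normalized counts, and the multiples reads. The chromatin values are signed scores per gene body deposited by the authors. Their caller and scaling are not given in the sources used here. There were 0 other value columns.

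Genes averaging at least 8 normalized counts (18263 of 55433) entered limma 3.58.1 under R 4.3.3, with lmFit and a trended eBayes, on the deposited values. P-values were adjusted by Benjamini-Hochberg, and the threshold was 0.05. Folds are ratios of mean normalized counts. For log2 folds, standard errors and 95% intervals limma was fitted to log2(normalized count + 1), a scale that understates changes of low genes. The deposited scale, from which the limma p-values came, understates them more. The difference of Kit was 0.0452 on the deposited scale and 0.425 on that of log2(normalized count + 1). Ratios between receptors were compared with exact permutation tests. Named genes were the receptors, their ligands, Nsd3 and up to 3 called genes per list with the largest log2 fold; further relatives, Eph receptors and inhibitors were named after their values were seen. The alternatives were scale, normalization, filter, voom, trend, replicate block and leaving out each library. Positions, promoters and sequences are from RefSeq (GRCm38.p6, the mm10 assembly). All 10 receptors matched the gene table, and 8 the promoter table. No pair of libraries agreed within counting error (chi-square per degree of freedom 1.33 to 9.95), so none was merged. Errors cover these libraries only, and read counts cover counting error.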

Additional observations from a re-analysis of the deposited data

How the results depend on the processing

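Of 164 values of the receptors and Nsd3 under alternatives, 152 kept direction and side of the threshold, 9 of called receptors lost the call, all by leaving out 1 library, and 2 of Insr passed it. Changes of filter or trend and the replicate block leave a gene's log2 difference as it is, so under these only the side of the threshold could move. Egfr alone changed sign, where leaving out 1 library gave -0.00987 (without sgControl replicate 1) to 0.0383 on the deposited log2 scale. Leaving out 1 library gave 1 to 2 receptors called higher and 0 to 2 lower, and, over all genes, 641 to 993 higher and 707 to 1164 lower (994 and 1176 with all libraries); the drops by over 1.5 times came without sgNSD3 replicate 1, 2 or 3. It gave 1 to 3 ligands lower, 3 to 8 other receptor tyrosine kinases higher, 1 to 2 adaptors higher and 1 to 3 lower, and 1 to 3 negative regulators lower. Ligands called lower numbered 1 without a mean-variance trend, beside 5.96% of all tested genes. Other receptor tyrosine kinases called higher numbered 4 with no filter (2.58% of all), and adaptors called higher 3 under quantile normalization (5.55%). Negative regulators called lower numbered 2 with a mean of at least 32 counts (8.16% of all) and 2 with the replicate block (7.3%). The causes were not tested.

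Replicate numbers of titles and columns differ for sgNSD3, and same-numbered libraries did not deviate together (correlations of 0.046, 0.0163 and -0.0134). The labels do not say whether a number marks a shared culture or day, and these correlations cannot decide it. The replicate block called 1119 genes higher and 1333 lower, and it changed no receptor's call. The mean paired difference of a ratio equals the difference of the group means by arithmetic, so pairing could not change it. For Pdgfrb/Pdgfra it was 0.32 on the log2 scale, with an exact paired p of 0.25, the smallest possible. For H3K27me3, 9 receptors rather than 10 had a score below the median when that median was taken over gene bodies with tested RNA. With 9 to 21 reads per library, the interval of the Kit fold ran from 0.857 to 2.1.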
